A study of Mus musculus with 2 samples.

Results

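The cells described here are ventral apical progenitors (APs) of the telencephalic vesicle, taken as medial ganglionic eminence (MGE) progenitors. They were selected on measured values, as droplet barcodes with at least 2500 transcript molecules (UMIs, unique molecular identifiers), under 6% mitochondrial UMIs and more UMIs of the 7 AP genes *Sox2*, *Hes1*, *Hes5*, *Vim*, *Nes*, *Fabp7* and *Slc1a3* than of the 6 neuronal genes *Tubb3*, *Stmn2*, *Dcx*, *Elavl3*, *Gap43* and *Mapt*. Barcodes that met this limit are called A>N cells. Within them, the rule asked for at least 2 *Nkx2-1* UMIs, at most 1 UMI of *Fgf8* and *Fgf17* together, at most 1 of *Dlx1* and *Dlx2* together, and 0 of *Emx1*. It kept 934 of 14283 barcodes of the library, and 20110 barcodes make up the series. This is 10.9% of the 8539 A>N cells (exact Clopper-Pearson 95% interval 10.3 to 11.6%). The 19 genes of the rule are described and not used as results.

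The series holds 2 single cell RNA libraries from mouse embryos of strain C57BL/6J, made with droplet kits that read the 3′ end of transcripts. The telencephalic vesicle library pooled 3 wild-type embryos of 2 litters, labelled E12 and described in the methods as aged from E11.5 to E12. The other library pooled septal explants of 8 E11.5 embryos carrying *PGKCre;Rosa26YFP*, a Cre driver active in all cells with a fluorescent reporter, and 4 E12.5 embryos carrying *Dbx1Cre;Rosa26tdTomato*, in which the reporter marks cells with a history of *Dbx1*. The labels give the genotype of both libraries as wild-type. The telencephalic vesicle library held 194821794 UMIs with a median of 8503 per barcode, and the septal explants 83103280 UMIs with a median of 12722 over 5827 barcodes. Embryos cannot be told apart within a library, and with 1 library per tissue there was no test and no replicate check. Intervals below are exact 95% intervals and cover counting error only.

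The MGE is a ventral swelling of the embryonic telencephalon that gives rise to cortical and striatal interneurons, neurons of the globus pallidus and early oligodendrocyte precursors. Its progenitors are set up by Sonic hedgehog (Shh), a secreted protein that relieves the receptor Ptch1 from blocking Smo, so that Gli factors act on target genes. The homeodomain factor Nkx2-1 defines MGE identity and keeps the fate of the adjoining lateral ganglionic eminence (LGE) from being taken. In the preoptic area, which lies next to the MGE, *Nkx2-1* progenitors also express *Shh* and *Nkx6-2*.

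*Nkx2-1* itself ranged from 2 to 36 UMIs per cell, with a median of 4. 219 cells held 2 UMIs, 332 held 3 to 4 and 383 held 5 or more, and 321 further A>N cells missed the rule by holding 1. *Olig2*, which encodes a bHLH factor needed for the oligodendrocyte lineage, ranged from 0 to 23 UMIs per cell with a median of 1. *Ptch1* ranged from 0 to 63 with a median of 2. *Olig2* was found in 661 of 934 cells (70.8%, interval 67.7 to 73.7%) and *Ptch1* in 788 (84.4%, interval 81.9 to 86.6%). Neither gene was part of the rule, and most cells held both a ventral marker and the hedgehog receptor.

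These shares were set against cells that should lack the markers. Among 478 barcodes with at least 10 UMIs of mesenchyme, endothelium and macrophage markers and no *Sox2* UMI, with a median depth of 12022 UMIs against 11498 in MGE progenitors, *Olig2* was found in 2.51% and *Nkx2-1* in 2.30%. *Shh* was found in 1.05% and *Nkx6-2* in 0.209% of them. *Ptch1* was found in 47.1%, and mesenchyme is known to express it. With each cell thinned at random to 3500 UMIs, *Olig2* was found in 35.5% of 929 MGE progenitors and in 1.05% of the 477 non-neural barcodes.

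In CPM (the UMIs of a gene per 1000000 UMIs of the summed cells), *Olig2* stood at 129.9 in MGE progenitors (interval 124.2 to 135.8) and at 29.4 in the 7605 other A>N cells, a 4.43-fold difference (interval 4.19 to 4.67). *Ptch1* stood at 230.6 (interval 223.0 to 238.4) against 92.6, a 2.49-fold difference (interval 2.40 to 2.59). The other A>N cells are all remaining progenitor-like barcodes. They also hold the cells with 1 *Nkx2-1* UMI and the *Nkx2-1* cells with *Dlx1*, *Dlx2*, *Emx1*, *Fgf8* or *Fgf17* above the limits. Genes were compared when they had at least 200 UMIs over all A>N cells, and called at a ratio of at least 2 or at most 0.5. Of 13551 such genes outside the rule, 130 were called higher (0.959%) and 724 lower (5.34%) in MGE progenitors, and the median ratio was 0.990.

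**Figure D1:**
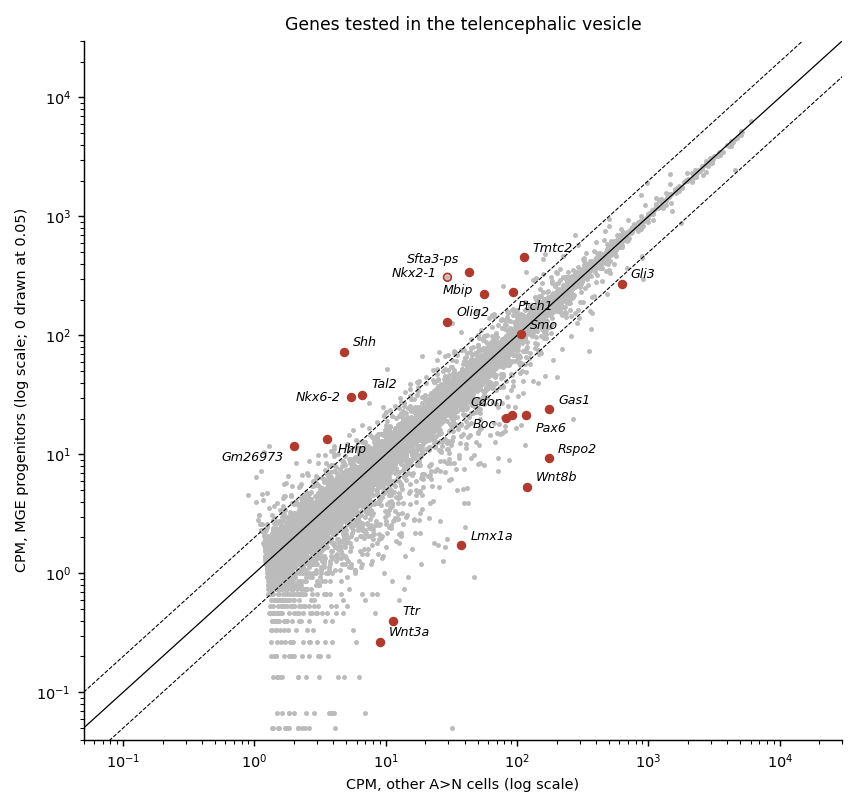
CPM of each gene with at least 200 UMIs over all A>N cells, in other A>N cells (x axis) and in MGE progenitors (y axis), on log scales; the solid line marks equal levels and the dashed lines a ratio of 2 and 0.5. *Shh*, *Sfta3-ps* and *Nkx6-2* lie above the upper dashed line, *Gas1*, *Cdon*, *Boc* and the hem genes *Wnt8b*, *Rspo2* and *Lmx1a* below the lower one, *Smo* lies on the solid line, and *Nkx2-1* (open circle) was used by the rule.

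The 15 genes ranked highest outside the rule are given first. *Shh* led with 72.9 CPM (interval 68.6 to 77.3) against 4.79, a 15.2-fold difference (interval 13.8 to 16.8). *9530036O11Rik*, a non-coding gene annotated antisense to *Shh*, followed with 10.5 against 1.18 CPM, 8.92-fold (interval 7.15 to 11.1). *Nkx6-2*, a homeobox gene of ventral neural progenitors, was 5.54-fold higher (interval 4.92 to 6.22; 3.63-fold with cells thinned to 3500 UMIs), and *Tal2*, which encodes a bHLH factor, 4.75-fold (interval 4.25 to 5.31). Other members were the orphan receptor gene *Gpr50* at 8.96-fold, the cadherin gene *Cdh19* at 4.10-fold, and *Tmtc2* at 4.04-fold, which was the most counted of the set with 6800 UMIs. *Arhgap22*, *Fndc1*, *Eva1c* and *Pdlim3* ranged from 4.09 to 6.46-fold on at most 108 UMIs each, and with thinning *Eva1c* went from 5.12 to 2.08-fold and *Pdlim3* from 4.09 to 6.24-fold. *Olig2* was also among the 15. Whether reads of *Shh* and its antisense neighbour were counted by strand in this library is not stated in the sources used here, so their counts cannot be told apart fully.

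Further members of the 15 lie beside *Nkx2-1*. *Nkx2-1* spans chr12:56531958-56536908 of mm10 on the minus strand. *Gm26973* (chr12:56535343-56607476), on the plus strand, is annotated antisense to it and overlaps it. *Sfta3-ps* (chr12:56488321-56529427), on the minus strand, starts 2530 bp beyond the 3′ end of *Nkx2-1*, and *Mbip* (chr12:56328303-56345894), also on the minus strand, starts 186063 bp beyond it. *Sfta3-ps* stood at 344.1 CPM (interval 334.8 to 353.6) against 42.8, 8.04-fold (interval 7.75 to 8.34). *Gm26973* was 5.87-fold higher (interval 4.84 to 7.09) and *Mbip*, which encodes an inhibitor-binding protein of a MAP kinase kinase kinase, 3.98-fold (interval 3.83 to 4.15). *Nkx2-9*, 74480 bp to the other side, had 21 UMIs and *Pax9* 1 UMI in MGE progenitors, both under the minimum of 200 over all A>N cells. *Slc25a21*, beyond *Pax9*, was the other tested gene of the region and stood lower, at a ratio of 0.375 (interval 0.310 to 0.449; 0.512 with cells of 1 *Nkx2-1* UMI included). Reads shared between *Nkx2-1*, the overlapping antisense gene and the close downstream gene cannot be told apart fully, and *Nkx2-1* was used by the rule.

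The 250 bases before the *Nkx2-1* start are shown because they hold most of the window around a RefSeq start of the antisense gene, which runs the other way. The GENCODE start of that gene, given above, lies inside *Nkx2-1* instead. The sequence is that of RefSeq on GRCm38.p6, chr12:56536909-56537158, minus strand, 5′ to 3′, and the 219 bases in capitals also lie in the window around the nearest RefSeq start of *Gm26973*, 282 bp from that of *Nkx2-1*.
Nkx2-1 promoter: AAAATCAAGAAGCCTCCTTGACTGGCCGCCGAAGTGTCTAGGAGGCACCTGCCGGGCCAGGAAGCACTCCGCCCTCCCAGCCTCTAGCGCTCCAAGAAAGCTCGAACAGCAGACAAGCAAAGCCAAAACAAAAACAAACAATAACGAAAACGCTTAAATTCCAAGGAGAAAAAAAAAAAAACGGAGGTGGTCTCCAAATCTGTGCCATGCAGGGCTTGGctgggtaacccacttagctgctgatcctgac
Its GC content was 50.8%, against a median of 52.4% over the same stretch of 32851 RefSeq promoter windows.

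Hedgehog genes lay on both sides of the other A>N cells, by role. Of the 6 genes for the ligand and its release, 5 were tested, *Shh* was called higher and none lower. *Disp1*, which exports the ligand, stood at a ratio of 1.07, *Hhat*, which acylates it, at 0.922, and the carrier genes *Scube1* and *Scube3* at 1.25 and 0.578, while *Scube2* had 3 UMIs. Of the 7 receptor and co-receptor genes, all were tested, and 3 were higher and 3 lower. The higher ones include *Ptch1* and *Hhip*, which limit the signal and are known targets of it. *Hhip*, which encodes a decoy receptor, stood at 13.5 against 3.59 CPM, 3.77-fold (interval 3.19 to 4.44). The lower ones encode the co-receptors that help cells bind the ligand. *Gas1* stood at 24.1 CPM (interval 21.6 to 26.7) against 175.0, a ratio of 0.137 (interval 0.124 to 0.152). *Cdon* stood at 21.3 against 91.3 CPM, a ratio of 0.233 (interval 0.208 to 0.260), and *Boc* at 20.4 against 83.0, a ratio of 0.246 (interval 0.219 to 0.275). *Smo*, the signal transducer itself, stood at 102.5 against 106.8 CPM, a ratio of 0.959 (interval 0.910 to 1.01).

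Within the cell, *Gli2* and *Gli3*, which encode the transcription factors that read the signal, were called lower, and the other 6 of 8 transduction genes lay between the limits. *Gli2* stood at a ratio of 0.387 (interval 0.354 to 0.423; 0.506 with cells of 1 *Nkx2-1* UMI included), and *Gli3*, whose product is the main repressor of the pathway, at 272.7 against 625.1 CPM, a ratio of 0.436 (interval 0.423 to 0.450). *Gli1*, itself a target of the pathway, stood at 8.86 against 4.61 CPM, 1.92-fold (interval 1.59 to 2.32), short of the limit on 133 UMIs. Its ratio was 2.18 with cells of 1 *Nkx2-1* UMI included and 1.34 with cells thinned to 3500 UMIs. *Sufu*, *Kif7*, *Gpr161*, *Grk3* and *Spop* ranged from 0.885 to 1.14. *Lrp2*, which encodes an endocytic receptor for Shh and was chosen after its value was seen, stood at 67.6 against 19.0 CPM, 3.57-fold (interval 3.32 to 3.83). The consensus Gli motif TGGGTGGTC, searched on both strands, was in 0.253% of 32851 RefSeq windows (GRCm38.p6) of 250 bases before to 50 after a start, and in none of the 18 windows found for 16 of the 21 hedgehog genes.

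**Figure D2:**
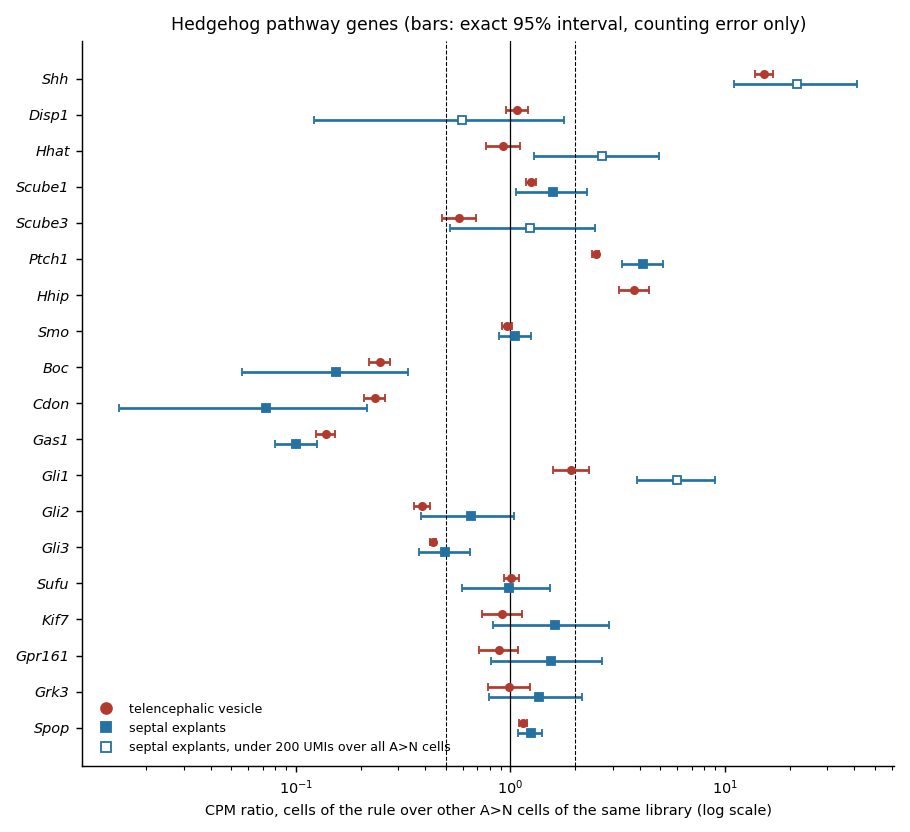
Ratio of CPM in cells of the rule to CPM in the other A>N cells of the same library for hedgehog genes (log scale), with exact 95% intervals for counting error; circles are the telencephalic vesicle, squares the septal explants where at least 3 UMIs were counted, and open squares genes with under 200 UMIs over all A>N cells there. In both libraries *Shh* and *Ptch1* lie above 2 and *Boc*, *Cdon* and *Gas1* below 0.5, and *Smo* lies near 1.

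Among the 18 ventral telencephalic factors outside the rule, 15 were tested, and 4 were higher, 2 lower and 9 between. *Nkx6-2*, *Olig2*, *Vax1* and *Olig1* were the higher ones. *Vax1*, a ventral homeobox gene, was 2.69-fold higher (interval 2.34 to 3.08), and *Olig1* 2.15-fold (interval 1.71 to 2.68). *Olig1* was under the limit, at 1.68 to 1.89, with thinning, with at least 3 *Nkx2-1* UMIs and without cells that carry non-neural signal (defined below). *Otx2*, *Six3*, *Gbx1* and *Etv1* stood between 1.16 and 1.67, with *Gbx1* on 24 UMIs and at 0.603 without Scrublet doublets, and *Gsx2*, which marks the LGE most strongly, at 0.904. *Lhx8* and *Isl1*, genes of MGE and striatal neurons, stood at 0.711 and 0.741, and *Gsx1* at 0.516. The ratio of *Lhx8* was 0.296 with thinning and 0.383 with *Dlx1* and *Dlx2* at 0. *Dlx5* (0.343) and *Sp9* (0.183) were lower, and both are known to depend on *Dlx1* and *Dlx2*, which the rule limited. *Lhx6*, *Gbx2* and *Dlx6* had 10, 4 and 6 UMIs. The MGE neuron list as a whole had 13 tested genes, of which 0 were higher, 5 were lower and 8 lay between. With thinning, 1 of them was higher and 6 were lower. *Lhx8* was found in 23 of 934 cells.

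Genes of neighbouring territories were measured beside the label. *Six3*, a gene of the anterior forebrain that the hypothalamus shares, was found in 77.1% of MGE progenitors and 6.07% of non-neural barcodes. It stood at 164.3 CPM (interval 157.9 to 170.9) against 99.9 in other A>N cells, a ratio of 1.64 (interval 1.58 to 1.72). Of 13 hypothalamic and diencephalic genes, which share *Nkx2-1* with the MGE, 4 were tested, 2 of them lower and none higher. *Fezf1* had 212 UMIs, at 14.1 against 23.8 CPM, a ratio of 0.593 (interval 0.514 to 0.681), and *Lhx9* 57, at a ratio of 0.672 (interval 0.505 to 0.880). *Foxd1*, one of the lower ones, had 69 UMIs and stood at 0.242 (interval 0.188 to 0.307), which ranged from 0.0745 to 0.453 over the alternatives. *Foxd1* also led this list in the non-neural barcodes, with 1598 of the 1760 UMIs of the list. The part of non-neural cells in the ratio of *Foxd1* was not tested. *Rax*, *Nkx2-4* and *Nkx2-2* had 2 UMIs each in all MGE progenitors, *Six6*, the other lower one, had 4, *Otp* had 4, and *Dbx2* had 0. Of 7 preoptic genes, 4 were tested and 2, *Shh* and *Nkx6-2*, were higher, and *Dbx1* stood at 1.70 (interval 1.38 to 2.07) on 114 UMIs in 76 cells. No gene of the rule separates the MGE from the preoptic area, so cells of the 2 cannot be told apart here.

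Most dorsal genes were lower. Of 14 pallial factors outside the rule, 12 were lower and 0 higher, with a median ratio of 0.164 against 0.990 for the genes tested. *Pax6*, a selector of the pallium and LGE, stood at 21.3 against 117.8 CPM, a ratio of 0.180 (interval 0.161 to 0.202), *Emx2* at 0.164, *Dmrt3* at 0.0920 and *Fezf2* at 0.145. *Wnt7a* and *Sfrp1* were the members between the limits, at 1.02 and 0.757. With cells of 1 *Nkx2-1* UMI included, 11 were lower. Over the alternatives *Dmrt3* reached 0.182, *Fezf2* 0.226 and *Wnt7b*, at 0.421 in the main comparison, 0.5625. *Emx1* was 0 by the rule, and *Pax6* and *Emx2* are known to share its territory, so that the choice of cells bears on these ratios. Of 16 tested genes of the cortical hem and of BMP signalling, 14 were lower and 0 higher, with a median ratio of 0.112. *Wnt5a* (1.96) and *Id4* (1.07) were the exceptions.

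Of the genes with at least 200 UMIs in other A>N cells without non-neural signal (defined below), a limit added after the values were seen, the 10 lowest were *Wnt3a*, *Ttr*, *Wnt8b*, *Lmx1a*, *E330013P04Rik*, *Msx2*, *Rspo2*, *Trp73*, *Folr1* and *Bmp6*. This limit counts UMIs only in the cells where these genes are higher, so their low ratios are in part built in and are given as a description. *Wnt3a*, the defining ligand of the hem, stood at a ratio of 0.0295 (interval 0.00803 to 0.0758) on 4 UMIs. *Rspo2*, which encodes a Wnt agonist, stood at 9.26 against 174.2 CPM, a ratio of 0.0532 (interval 0.0447 to 0.0628). With cells of 1 *Nkx2-1* UMI included, the ratios of these 10 genes lay between 0.0988 (*Ttr*) and 0.224 (*Msx2*), and that of *Wnt3a* was 0.125. The rule fixed for the lowest genes instead returned 10 genes with 0 UMIs in MGE progenitors, *Spi1*, *S100a9*, *Pthlh*, *Ccl3*, *D230030E09Rik*, *Ly86*, *Cldn5*, *Stfa1*, *Aif1* and *Adgrf5*, which had 202 to 616 UMIs in other A>N cells. Several of these are genes of macrophages, neutrophils or endothelium.

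Lists of other cell types were measured beside these results. The 8 macrophage markers summed to 4.0 CPM in MGE progenitors and 37.0 in other A>N cells, led by *Fcer1g* with 32 UMIs and with *Aif1* at 0. The 8 mesenchyme markers summed to 40.4 against 137.9 CPM, led by *Col3a1* with 227 UMIs. The 8 endothelial markers, of which 7 were tested and 5 lower, summed to 13.4 against 35.4 CPM, led by *Egfl7* with 129 UMIs and with *Cldn5* at 0. Hemoglobin and other erythroid genes summed to 4349 against 8186 CPM, led by *Hbb-y*, with a median of 0.331% of the UMIs of a cell in MGE progenitors and 0.336% in other A>N cells. The neuronal markers outside the rule summed to 409.1 against 398.0 CPM, and 0 of the 13 tested were past either limit. The comparison was repeated with cells that held at least 1 *Sox2* UMI, at most 1 UMI of the mesenchyme, endothelium and macrophage lists and under 5% hemoglobin, on both sides, which left 804 MGE progenitors and 5646 other A>N cells. *Shh* was then 12.8-fold, *Sfta3-ps* 6.76-fold, *Nkx6-2* 4.93-fold and *Olig2* 3.92-fold higher. Of 105 lower genes, mostly members of the lists and the ranked genes, 84 remained at or under 0.5. Most of the others were markers of the mesenchyme, endothelium, macrophage and erythroid lists that this limit uses. *Col3a1*, left with at most 1 UMI per cell, stood at 1.60. *Pf4*, a platelet gene, was 5.07-fold higher in all MGE progenitors, but 769 of its 781 UMIs lay in 2 cells, and without them its ratio was 0.0782.

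Genes of the cell cycle stood close to their level in other A>N cells. All 30 S phase genes and all 44 genes of G2 and mitosis were tested and 0 of them passed either limit, with ratios of 0.975 to 1.35 and 0.901 to 1.22. *Ccnd1*, the cyclin that responds to mitogens, stood at 944.9 against 502.9 CPM, 1.88-fold (interval 1.85 to 1.91), and *Ccnd2* at a ratio of 0.709. Of 14 tested Notch genes outside the rule, 0 were past either limit. *Nrarp*, a Notch target, stood highest at 1.74, and the ligand genes *Dll1* and *Dll3*, which rise as cells leave the AP state, lowest at 0.546 and 0.578. Of 14 neurogenic transition genes, 4 were lower, among them *Gadd45g* at 0.405, *Nhlh1* at 0.275 and *Dlx5* at 0.343. The other A>N cells hold the *Nkx2-1* cells above the limit on *Dlx1* and *Dlx2*. Compared with MGE progenitors, those cells stood 6.63-fold higher in *Gadd45g*, 18-fold in *Dlx5*, 7.16-fold in *Dll3* and 3.79-fold in *Dll1*. The choice of cells thus bears on these ratios, and its part was not tested.

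Among surface and secreted guidance proteins, 20 genes were tested, of which *Ntn1* was higher and 10 were lower. *Ntn1*, the netrin attractant of ventral midlines, stood at 152.2 against 67.0 CPM, 2.27-fold (interval 2.17 to 2.38; 1.97-fold without cells that carry non-neural signal, which left 8 of the list lower), and the repellent *Slit2* at 575.5 against 290.6, 1.98-fold (interval 1.94 to 2.03). *Robo2* (0.309), *Nrg1* (0.263), *Sema3a* (0.239) and *Slit3* (0.231) were among the lower genes. *Ephb1* was the 1 higher of 13 tested Eph and ephrin genes, at 343.6 against 116.3 CPM, 2.96-fold (interval 2.86 to 3.05), and none was lower, though *Epha3*, *Epha7* and *Efnb2* reached 0.448, 0.462 and 0.473 under some alternatives, of which none left more than 2 genes lower. *Epha2* reached 2.02 with thinning. Of 10 tested delta-protocadherins and related genes, *Pcdh9* (0.447) and *Pcdh19* (0.462) were lower, but over 0.5 (0.524 and 0.532) with cells of 1 *Nkx2-1* UMI included, 8 lay between, and *Pcdh8* stood at 1.13 (interval 0.913 to 1.38) and was found in 89 cells. A list of classical cadherins, which does not hold *Cdh19*, had 11 tested genes. *Cdh4* (0.353) and *Cdh3* (0.406, and 0.165 without cells that carry non-neural signal) were lower, and *Cdh13* stood highest of the list at 1.69.

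Of 8 tested glial genes outside the rule, *Olig1* and *Olig2* were higher and *Pdgfra* lower (0.372). Without cells that carry non-neural signal, *Olig1* (1.88) and *Pdgfra* (0.616) lay between the limits, and 1 of 5 oligodendrocyte precursor markers was tested. Of 12 radial glia genes, *Pax6* was lower and 11 lay between, with *Hmga2*, a gene of young progenitors, at 0.516. Of 16 rostral genes of the FGF and Zic families outside the rule, 1 was higher and 7 were lower. *Fgf3* was the higher one, at 2.28 (interval 1.57 to 3.24) on 39 UMIs and 1.76 with thinning, *Fgf15* stood at 1.97, and the lowest were *Fgf18* (0.172), *Zic5* (0.195), *Sp8* (0.199) and *Zic2* (0.210). Of 10 tested LGE factors, 4 were lower, *Sp8*, *Zfp503*, *Rarb* and *Ebf1*, and *Meis2* and *Pbx3* stood at 1.15 and 1.33. Without cells that carry non-neural signal, *Ebf1* went from 0.315 to 0.652, between the limits, and *Rarb* from 0.300 to 0.492. Of 7 telencephalic genes, *Lhx2* was lower (0.470) and *Six3* highest (1.64). Of 6 area patterning genes, 4 were lower, and *Nr2f1* stood at 0.990 and *Nr2f2* at 0.611. Of 9 tested immediate early genes, 0 were past either limit, and 3 were higher without cells that carry non-neural signal.

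4 other classes were set beside MGE progenitors to see where they differ. LGE progenitors (162 A>N cells, *Nkx2-1* 0, *Gsx2* at least 2), dorsal pallial progenitors (631 cells, *Emx1* at least 2), *Fgf8*/*Fgf17* progenitors (621 cells) and *Nkx2-1* cells with at least 2 UMIs of *Dlx1* and *Dlx2* (344 cells) were each chosen by those genes. Their median depths were 11811, 27898, 11815 and 15430 UMIs. *Shh* stood at 72.9 CPM in MGE progenitors, 40.8 in the Dlx-positive *Nkx2-1* cells, 0.988 in *Fgf8*/*Fgf17* progenitors, 0.430 in dorsal pallial and 0.299 in LGE progenitors. The last of these rests on 1 UMI. *Sfta3-ps* stood at 446.2 in the Dlx-positive cells and at no more than 4.25 in the LGE, dorsal pallial and *Fgf8*/*Fgf17* progenitors. *Ptch1* stood at 213.6 CPM in the Dlx-positive cells, 104.0 in LGE, 77.1 in *Fgf8*/*Fgf17* and 33.9 in dorsal pallial progenitors, so that MGE progenitors and Dlx-positive cells were the highest, at a ratio of 1.08 between them (interval 1.02 to 1.14). *Six3* stood at 164.3 CPM in MGE progenitors, 125.3 in LGE, 249.5 in *Fgf8*/*Fgf17* and 16.1 in dorsal pallial progenitors.

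The co-receptor genes were low in both MGE progenitors and Dlx-positive *Nkx2-1* cells. The Dlx-positive cells stood at 26.7 CPM of *Gas1* (ratio to MGE progenitors 1.11, interval 0.935 to 1.32), 25.0 of *Cdon* (1.18, interval 0.982 to 1.41) and 27.1 of *Boc* (1.33, interval 1.11 to 1.59). *Gas1* stood at 24.1 CPM in MGE progenitors, 95.7 in LGE, 168.5 in *Fgf8*/*Fgf17* and 348.8 in dorsal pallial progenitors. *Cdon* had the same order, with 21.3, 60.1, 106.5 and 180.6 CPM, and *Boc* stood at 20.4, 94.2, 79.8 and 126.0. *Gli3* was 767.8 CPM in LGE progenitors against 272.7 in MGE progenitors. *Nrg1*, a ligand of ErbB receptors, stood at 319.9 CPM in LGE progenitors and 25.2 in MGE progenitors, a ratio of 0.0787 (interval 0.0698 to 0.0886), and *Erbb4*, which encodes its receptor, at 58.0 against 338.6, a ratio of 5.84 (interval 5.06 to 6.77). The ligand and receptor genes thus stood at opposite levels in the 2 adjoining eminences. High *Erbb4* was not particular to MGE progenitors. It had 6434 of 13164100 UMIs in *Fgf8*/*Fgf17* progenitors against 5082 of 15010678 in MGE progenitors, and a ratio of 1.40 to all other A>N cells. In MGE progenitors, *Slit2* (7.46-fold) and *Lrp2* (10.3-fold) were also higher than in LGE progenitors, and *Pax6* (0.137), *Robo2* (0.190) and *Pcdh9* (0.259) lower.

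**Figure D3:**
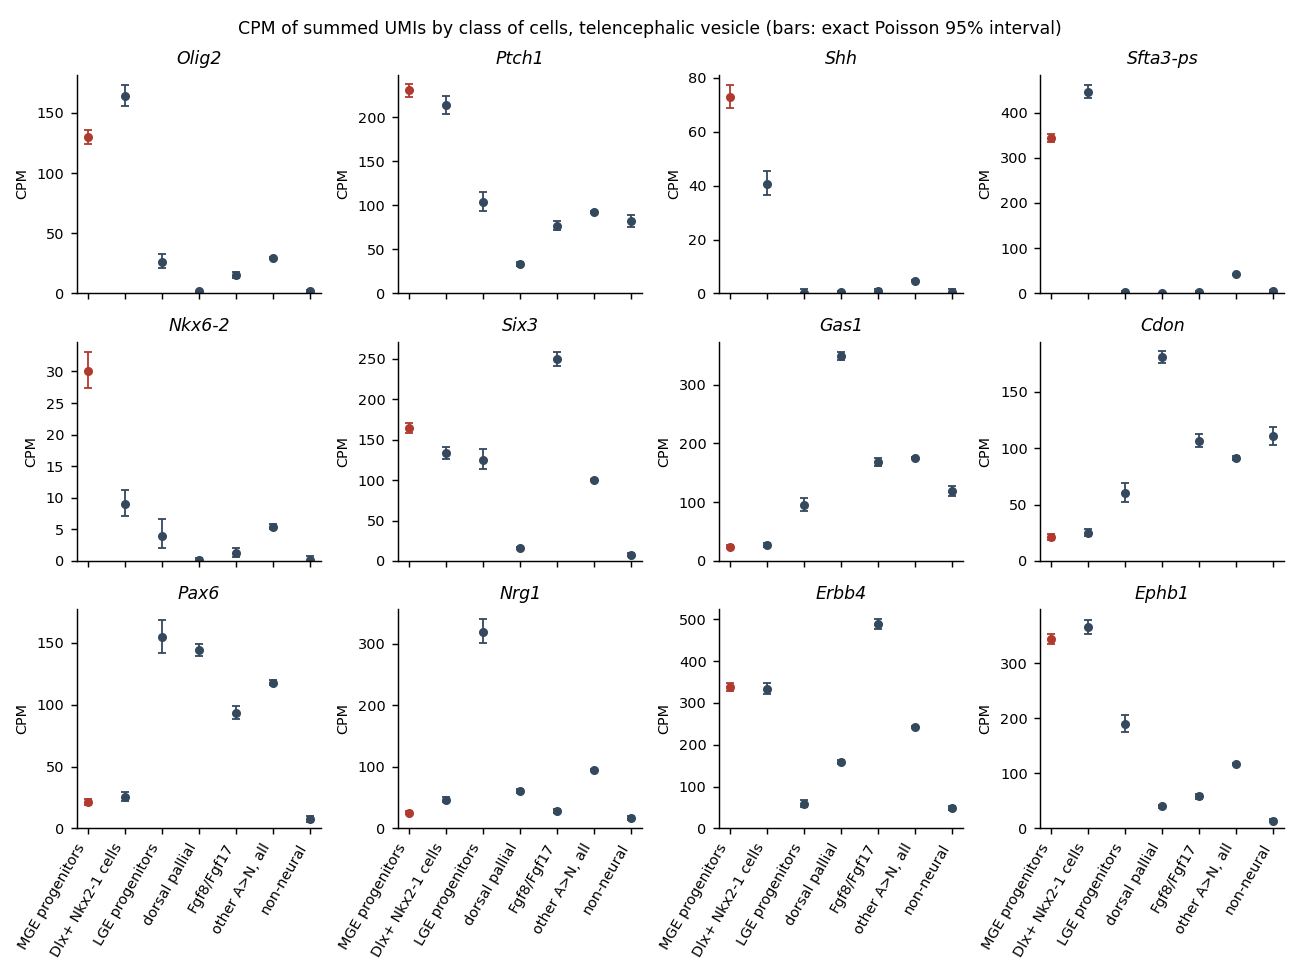
CPM of summed UMIs for 12 genes in 7 classes of cells of the telencephalic vesicle, with exact Poisson 95% intervals; MGE progenitors are in red and each class was chosen by genes that are not plotted. *Shh* and *Sfta3-ps* are high in the leftmost 2 classes and near 0 in LGE, dorsal pallial and *Fgf8*/*Fgf17* progenitors, *Gas1* and *Cdon* are highest in dorsal pallial progenitors, and *Nrg1* is highest and *Erbb4* low in LGE progenitors.

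Dlx-positive *Nkx2-1* cells were compared in the same way. Of 10818 genes with at least 100 UMIs in the 2 classes and outside the rule, 87 were at least 2-fold higher (0.804%) and 11 at least 2-fold lower (0.102%) in them than in MGE progenitors. The rule limited *Dlx1* and *Dlx2*, and *Dlx5* and *Sp9* are known to depend on them. *Pf4* had the lowest ratio, 0.0142, on the UMIs of the 2 MGE progenitors described above. *Sp9* stood at 60.1 CPM against 1.20, 50.1-fold (interval 31.4 to 85.3), *Dlx6os1* was 30.0-fold, *Dlx5* 18-fold and *Gsx1* 17.6-fold higher. *Lhx8*, a determinant of MGE cholinergic neurons, was 13.8-fold (interval 9.82 to 19.9) and *Isl1* 9.09-fold higher, and the Notch ligand gene *Dll3* 7.16-fold. *Nkx6-2* stood at 8.99 CPM in Dlx-positive cells against 30.1 (ratio 0.299, interval 0.230 to 0.383) and *Dbx1* at 2.22 against 7.6 (0.292, interval 0.167 to 0.482). These 2 homeobox genes thus stood higher in the cells with at most 1 UMI of *Dlx1* and *Dlx2*.

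Within MGE progenitors, *Shh* and *Nkx6-2* were each found in a part of the cells. *Shh* was found in 221 cells (23.7%, interval 21.0 to 26.5%), with up to 53 UMIs in a cell, and *Nkx6-2* in 185 cells (19.8%, interval 17.3 to 22.5%), with up to 16. 196 cells held *Shh* only, 160 *Nkx6-2* only, 25 both and 553 neither, at median depths of 11589, 12654, 20490 and 10860 UMIs. Cells without a UMI of a gene may still express it, and the overlap was not tested. Neither gene was used by the rule, and these groups, and the genes named from them, were chosen after the data were seen. Of 7525 genes with at least 100 UMIs in the first 2 groups, leaving out *Shh* and *Nkx6-2*, 67 were at least 2-fold higher (0.89%) and 77 at least 2-fold lower (1.02%) in *Shh*-only cells.

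The pathway targets *Gli1*, *Hhip* and *Ptch1* were compared between these groups. *Gli1*, under the minimum of 100 UMIs, was 2.84 CPM in *Shh*-only cells (8 UMIs, interval 1.23 to 5.60), 16.6 in *Nkx6-2*-only cells (interval 12.4 to 21.8) and 7.0 in cells with neither. *Hhip* was 8.18, 33.5 and 7.0 CPM in the same order. *Ptch1* did not separate the first 2 groups beyond its interval (ratio 0.915, interval 0.831 to 1.01), with 274.4 CPM in *Shh*-only cells (interval 255.4 to 294.4), 300.0 in *Nkx6-2*-only cells (interval 281.1 to 319.8) and 181.7 in cells with neither. *Gli2* stood at 12.8 against 49.8 CPM, a ratio of 0.257 (interval 0.174 to 0.371), *Gli3* at 132.9 against 318.8, and *Boc* at 7.82 against 27.2, while *Gas1* (20.6 against 21.7) and *Cdon* (20.6 against 17.3) did not separate beyond their intervals.

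The *Shh* cells also stood apart in other genes. *Tal2* was 69.0 CPM in *Shh*-only and 7.67 in *Nkx6-2*-only cells, 8.99-fold (interval 5.87 to 14.4). *Id3*, a BMP-responsive inhibitor of bHLH factors, was 5.33-fold (interval 4.44 to 6.44), *Dlk1* 3.92-fold, *Lrp2* 3.56-fold, *Slit2* 3.36-fold and *Sfta3-ps* 3.13-fold higher. *Sulf1*, whose product edits heparan sulfate on the cell surface, was 3.64-fold higher (interval 3.1 to 4.28). The largest difference the other way, apart from *Nkx6-2*, was *Egfem1*, with 43.7 against 707.6 CPM, a ratio of 0.0618 (interval 0.0511 to 0.0741). *Dach2* (0.289), *Nkx2-3* (0.157) and *Meis1* (0.261) were lower in *Shh*-only cells as well. *Top2a*, a gene of dividing cells, stood at 606.3 and 632.9 CPM, a ratio of 0.958 (interval 0.898 to 1.02).

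**Figure D4:**
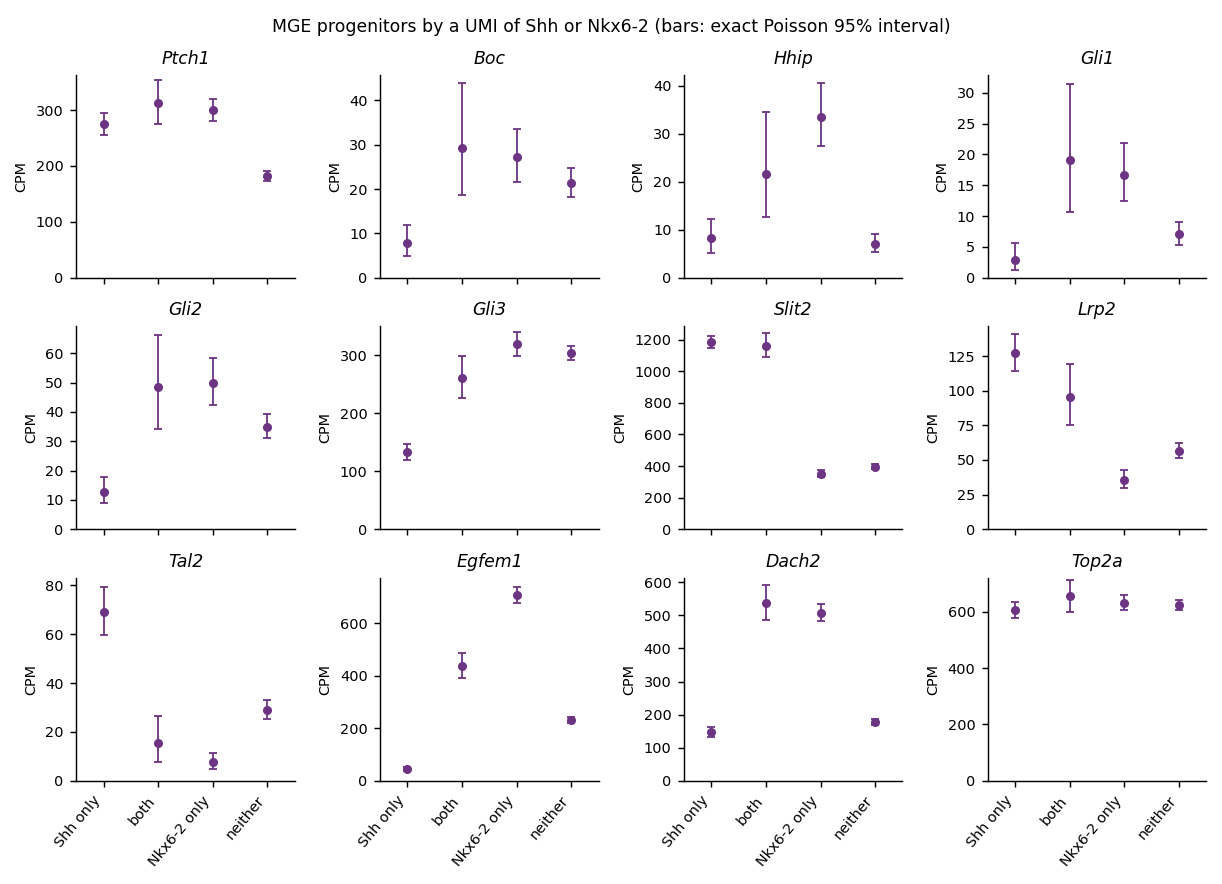
CPM of 12 genes in MGE progenitors with a UMI of *Shh* only (196 cells), of both (25), of *Nkx6-2* only (160) or of neither (553), with exact Poisson 95% intervals. *Boc*, *Hhip*, *Gli1* and *Gli2* are lower in *Shh*-only than in *Nkx6-2*-only cells, *Slit2* is high wherever *Shh* is present, and *Top2a* varies little between those 2 groups.

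Levels changed across the threshold of the rule. From cells with 1 *Nkx2-1* UMI, just outside, to those with 2, just inside, *Shh* went from 10.4 to 58.3 CPM, *Olig2* from 74.4 to 115.8, *Sfta3-ps* from 88.9 to 219.7 and *Pax6* from 73.2 to 27.2. At 3 to 4 UMIs *Shh* stood at 70.2 CPM and at 5 or more at 79.3. *Olig2* ended at 136.2 and *Pax6* at 17.1. The share of cells with a *Shh* UMI was 8.10%, 17.4%, 21.1% and 29.5% in these 4 groups, whose median depths were 9743, 9908, 10526 and 14261 UMIs. The part of depth in these shares was not tested.

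Some of the levels differed between cells of different depth. The 311 deepest MGE progenitors held 9012008 of their 15010678 UMIs. *Gas1* stood at 6.30 CPM in the 312 shallowest cells, 10.5 in the 311 between and 34.2 in the deepest, and *Pax6* at 6.72, 5.53 and 31.4. *Shh* stood at 80.6, 119.4 and 52.2. When each cell was given equal weight, the ratio to other A>N cells of *Gas1* was 0.104 and that of *Shh* 19.0. The rule sets limits in UMIs, so that a deep cell enters with a lower share of *Nkx2-1*, which was 484.2 CPM in the shallowest and 238.8 in the deepest cells. Scrublet marked 5.14% of MGE progenitors as doublets and 5.76% of other A>N cells. The part of depth or doublets in the dorsal transcripts of the deepest cells was not tested.

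**Figure D5:**
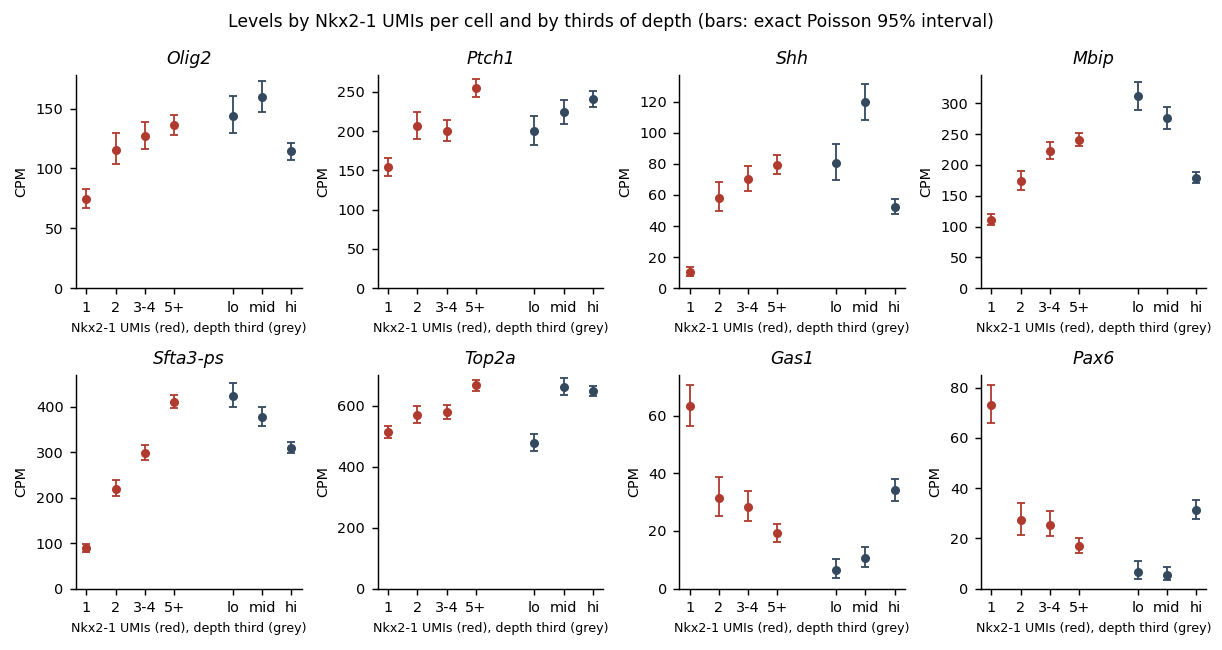
CPM of 8 genes by the number of *Nkx2-1* UMIs per cell (red; 1 lies outside the rule) and by depth among MGE progenitors, in 3 groups of 311 or 312 cells from shallow (lo) to deep (hi) (grey-blue), with exact Poisson 95% intervals. *Gas1* and *Pax6* fall with *Nkx2-1* UMIs and are highest in the deepest cells, and *Sfta3-ps* rises with *Nkx2-1*.

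The same rule was applied to the septal explants, which it was not set on. It kept 152 of 3891 A>N cells (3.91%, interval 3.32 to 4.56%), with a median of 12351 UMIs. Kits, ages and processing differ, so only the ratio within each library is given. *Olig2* was 5.75-fold higher (interval 5.07 to 6.50), *Ptch1* 4.15-fold (interval 3.32 to 5.15) and *Mbip* 6.92-fold (interval 6.36 to 7.53) than in the other A>N cells there. *Shh* had 18 UMIs and was 21.6-fold higher (interval 11.0 to 41.5). *Gas1* stood at a ratio of 0.101 (interval 0.0797 to 0.125), *Cdon* at 0.0728 on 3 UMIs (interval 0.0150 to 0.213), *Boc* at 0.153 and *Pax6* at 0.0801. *Gli1* was 6.00-fold higher on 29 UMIs (interval 3.88 to 9.01) and *Dbx1* 4.87-fold (interval 3.62 to 6.44), both with intervals above those of the telencephalic vesicle.

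Over the 10079 genes tested in both libraries and outside the rule, 131 were called higher (1.3%) and 439 lower (4.36%) in the septal explants. Of the 44 of them called higher in the telencephalic vesicle, 32 were also called higher in the septal explants, which is 72.7% of the one list and 24.4% of the other. The first of these 32 by the smaller ratio, ranked after the values were seen, were *Olig2*, *Mbip*, *Lrp2*, *Tox2*, *Lmo1* and *Ephb1*, with septal ratios from 4.99 to 6.92. *Ntn1* was 6.29-fold higher. Of 293 genes called lower in the vesicle, 204 were called lower in the explants (69.6%, and 46.5% of the septal list). The 3 genes called in opposite directions, named after their values were seen, were *Pf4*, *Pcp4* and *Rflna*, on 3 to 15 UMIs in the septal cells. Of the 15 leading genes of the vesicle, 2 had enough UMIs to be tested in the explants, *Olig2* and *Mbip*. In all, 12 stood above a ratio of 1 there, most of them on UMIs under the minimum. *Gm26973*, for example, stood at 14.4 with an interval of 0.244 to 276, and *Sfta3-ps* had no septal ratio. The share of all genes above 1 was not counted, so the 12 are given as a description.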

How the data were processed

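The authors deposited raw counts, as UMIs per gene and cell barcode, and per the labels they used Cell Ranger 2.1.1 (septal explants, kit v2, about 10000 input cells) and 7.1.0 (telencephalic vesicle, kit v3.1, about 20000 input cells) with mm10. Septal counting used default settings per the methods. For the vesicle, whether introns or strand were used is not given in the sources used here, and with introns long genes gain counts. The deposited counts held 14283 barcodes with 194821794 UMIs (median 8503 per barcode) in the vesicle and 5827 with 83103280 UMIs (median 12722) in the explants, which share 1 barcode sequence. Gene and barcode lists were used only to name rows and columns.

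UMIs were summed over the cells of a class and scaled to CPM, with exact Poisson intervals, exact conditional binomial intervals for ratios and Clopper-Pearson intervals for shares. No test was run. A share of 0 was read against 3 counts. Doublets were not removed, and Scrublet (scanpy 1.11.5, expected rate 0.8% per 1000 barcodes) marked 807 vesicle barcodes as an alternative. The calculation was tested on simulated counts with known changes. Named genes were *Nkx2-1*, *Olig2* and *Ptch1*, then the 15 genes with the largest smaller ratio, at least 2 against other A>N cells and against those without non-neural signal, the 10 lowest likewise, and members of 33 gene lists. The planned limit on non-neural signal left 3 cells, since hemoglobin UMIs are in nearly all barcodes, and was replaced as described. Members and lists were chosen with earlier results of these data known. Coordinates are GENCODE vM21. Sums used numpy 2.4.6 and pandas 2.3.3, intervals scipy 1.17.1 and plots matplotlib 3.10.9, under Python 3.11.15. Some genes are counted in their lists but not reported here by name.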

Additional observations from a re-analysis of the deposited data

Results flagged for a closer look

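The septal explant library carries a tdTomato reporter sequence that the comparisons above do not use. Its CPM was 3.18-fold higher in the cells of the rule than in other A>N cells of the explants (interval 2.22 to 4.43), with 39 UMIs in 15 of 152 cells. The share of cells with a reporter UMI was 9.87% (interval 5.63 to 15.8%) against 6.13% (interval 5.38 to 6.94%), so that the share in other A>N cells lay inside the first interval. It was singled out because it is a signal outside the main measurement, and the difference was not tested. The other reporter of that library, eYFP, stood at a ratio of 0.863 (interval 0.799 to 0.932). Embryos with the 2 reporters were pooled and differ in age and Cre driver, which cannot be told apart here.

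*Pf4* lay on opposite sides in the 2 libraries, at a ratio of 5.07 (interval 4.65 to 5.53) in the vesicle and 0.140 (interval 0.0381 to 0.360) on 4 UMIs in the septal explants (2.06 there without cells that carry non-neural signal), and the difference was not tested. 769 of its 781 UMIs in MGE progenitors lay in 2 cells, and without them the vesicle ratio was 0.0782.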

How the results depend on the processing

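The number of MGE progenitors was 1255 with at least 1 *Nkx2-1* UMI, 715 with at least 3 and 781 with *Dlx1* and *Dlx2* at 0, against 934. A limit of 5000 UMIs, a mitochondrial share within 3 MAD, removal of Scrublet doublets and A over 2 times N left 919, 926, 886 and 905. The counts of genes called followed the minimum number of UMIs per gene, with 263 higher and 1391 lower at 50 and 62 higher and 333 lower at 1000, against 130 and 724. Under the other alternatives, 105 to 188 genes were higher and 571 to 1012 lower, within 1.5 times. The genes themselves were partly others. With thinning, 107 of the 188 higher and 628 of the 1012 lower genes were called in the main comparison. Without cells that carry non-neural signal, these were 104 of 168 and 533 of 611. In all, 357 tested genes (the lists, the ranked genes, *Lrp2*, *Slc25a21*, *Pf4* and *Egfem1*) were followed under 13 alternatives, 26 of them called higher and 105 lower. The calls lost included *Olig1* (3 alternatives), *Fgf3*, *Ntn1*, *Gli2*, *Rarb*, *Ebf1*, *Pdgfra*, *Pcdh9* and *Pcdh19*, and *Olig2* ranged from 3.92 to 4.59. Without cells that carry non-neural signal, 22 of 26 and 84 of 105 calls held. Of the lower markers of non-neural cells, whose lists that limit uses, 10 changed direction. These were *Col1a1* (1.08), *Col3a1* (1.60), *Foxc1*, *Cdh5* and *Esam* (1.65), *Flt1* (2.25), *C1qb* (2.75), *Cx3cr1* (1.16), *Hba-x* (1.12) and *Hbb-bh1* (1.11). Apart from the 2 hemoglobin genes, that limit leaves at most 1 UMI of these lists per cell. Their ratios rest on few UMIs, have no intervals here, and are not read as a change. *Pf4* changed direction, to 0.0782, without the 2 cells. Ratios that moved by over 1.5 times include *Nkx6-2* (5.54 to 3.63), *Eva1c* (5.12 to 2.08), *Pdlim3* (4.09 to 6.24), *Sp9* (0.183 to 0.109) and *Lhx8* (0.711 to 0.296) with thinning, *Dlx5* (0.343 to 0.197) with *Dlx1* and *Dlx2* at 0, and *Gbx1* (1.20 to 0.603) without doublets. With at least 1 *Nkx2-1* UMI, all 10 lowest genes moved by over 1.5 times, among them *Wnt3a* (0.0295 to 0.125), *Rspo2* (0.0532 to 0.208) and *Bmp6* (0.0613 to 0.221). Over the alternatives, *Pax6* ranged from 0.0943 to 0.286, *Sema3a* from 0.154 to 0.422, *Slit3* from 0.173 to 0.447 and *Zfp503* from 0.147 to 0.378. Genes between the limits that passed 2-fold under an alternative include *Slit2* (up to 2.43), *Nrarp* (2.20), *Nxph1* (2.69), *Pcdh11x* (2.42), *Fgf15* (2.09) and *Wnt5a* (2.075). *Gli1*, at 1.92, passed 2-fold, at 2.18, with at least 1 *Nkx2-1* UMI and stood at 1.34 with thinning. The limits on non-neural signal on both sides and the set without the 2 *Pf4* cells were chosen after seeing the data. The comparison with the planned limit was not run, as 3 cells were left. No paired analysis was possible because each tissue has 1 library. *Lhx6* and *Scube2* rest on 10 and 3 UMIs.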
